A study of Bos taurus with 2 samples.

Results

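Keratins are the intermediate filament proteins of epithelial cells. Each filament is built from pairs of a type I (acidic) and a type II (basic to neutral) chain, and most epithelia use characteristic pairs, so that keratin genes are widely used to tell one epithelium from another. In the mammary gland, luminal cells are known for KRT8 with KRT18 and KRT19, and the basal or myoepithelial layer for KRT5 with KRT14. Other keratins belong to stratified epithelium, skin, hair and its root sheath, all of which are found in the teat and udder skin.

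The keratin genes of mammary tissue from Chinese Holstein cows were described on 1 array labelled mastitis and 1 array labelled normal. A probe was taken as a keratin probe when the gene name in the files, or the current RefSeq symbol of the transcript the probe was designed on, was KRT followed by a number, so the keratin-associated proteins were left out. This gave 92 of the 43653 probes that are not controls, for 50 of 16959 named genes. The choice used names and no measured value.

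Both groups were adult female cows in late lactation, and no genetic modification is described. The mastitis array held total RNA of mammary tissue with mastitis, and the normal array total RNA of healthy mammary tissue. The study's text describes 3 cows per group, tissue taken after slaughter, and antibiotics given to the cows with mastitis and not to the healthy cows, so disease and antibiotic treatment cannot be told apart. It does not name the cow or cows behind either array. RNA was labelled with a single dye (Cy3), and the slide and the scan were shared by both arrays. With 1 array per group, differences could not be checked across cows, no p-value is given, and an SD is over probes of the same gene, which is technical.

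The net signal is the spot intensity after the authors' software had subtracted the mean of the negative controls. A probe was called above background when its net signal exceeded the mean of the 153 negative control spots by more than 2.6 SD (7.10 in mastitis, 8.74 in normal tissue) and the spot had been found. This held for 70.2% of all probes in mastitis and 67.0% in normal tissue. Of the 92 keratin probes, 41 were above background on both arrays (63.9% of all probes were). Each array was then divided by the 75th percentile of its net signals, 210 for mastitis and 128 for normal. A probe with equal scaled signal on both arrays therefore has a net signal 1.64 times as high on the mastitis array, and every ratio below is the log2 ratio of scaled signals, mastitis over normal. Signals of different probes were not set against each other, since probes differ in brightness for the same amount of RNA. In bulk tissue, fewer cells of a type and less RNA per cell cannot be told apart.

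Many keratin genes were not measured on both arrays. Of the 50 keratin genes, 25 (50%) had a probe above background on both arrays, beside 72.2% of all genes. A further 3 were above background on the mastitis array alone (KRT2, KRT74 and KRT82), 2 on the normal array alone (KRT24 and KRT32), and KRT9 on each array in a different probe. The remaining 19 were not above background on either array (20.3% of all genes were not). These were KRT6C, KRT12, KRT20, KRT23, KRT25, KRT26, KRT27, KRT28, KRT33A, KRT34, KRT36, KRT39, KRT40, KRT72, KRT73, KRT76, KRT84, KRT89 and KRT222, which include the intestinal keratin KRT20, the corneal keratin KRT12 and most of the inner root sheath keratins. KRT1, KRT13, KRT16, KRT37, KRT38, KRT42 and KRT77 are listed in RefSeq and had no probe under the naming used here. The major suprabasal keratin of skin (KRT1) and the mucosal keratin KRT13 are therefore not described.

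KRT15 was higher on the mastitis array and KRT78, KRT71, KRT4 and KRT83 were lower, each by at least 2-fold. Of the 25 measured keratin genes, 4 were at least 2-fold lower (9.14% of all 12245 measured genes were), 1 was at least 2-fold higher (2.26% of all genes) and 20 lay within 2-fold. The log2 ratio was above 0 for 11 and below 0 for 14 (above 0 for 38.6% of all genes). The median log2 ratio of the keratins was -0.19 and that of all genes -0.15, with quartiles of -0.52 and 0.19 for all genes. As a set, the keratins thus had a median close to that of all genes, while single members ran from -2.75 (KRT78) to 1.75 (KRT15). The sign of both medians depends on the scaling. With spike-in probes in place of the 75th percentile they were 0.05 and 0.09, and without scaling 0.53 and 0.56. Their difference (-0.04 on the log2 scale) cannot change when an array is divided by a constant. It was -0.36 without a filter on dim probes, -0.23 when each gene was read by its brightest probe, -0.17 with unfound spots kept, and 0.07 over genes with net signals of 50 or more.

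**Figure D1:**
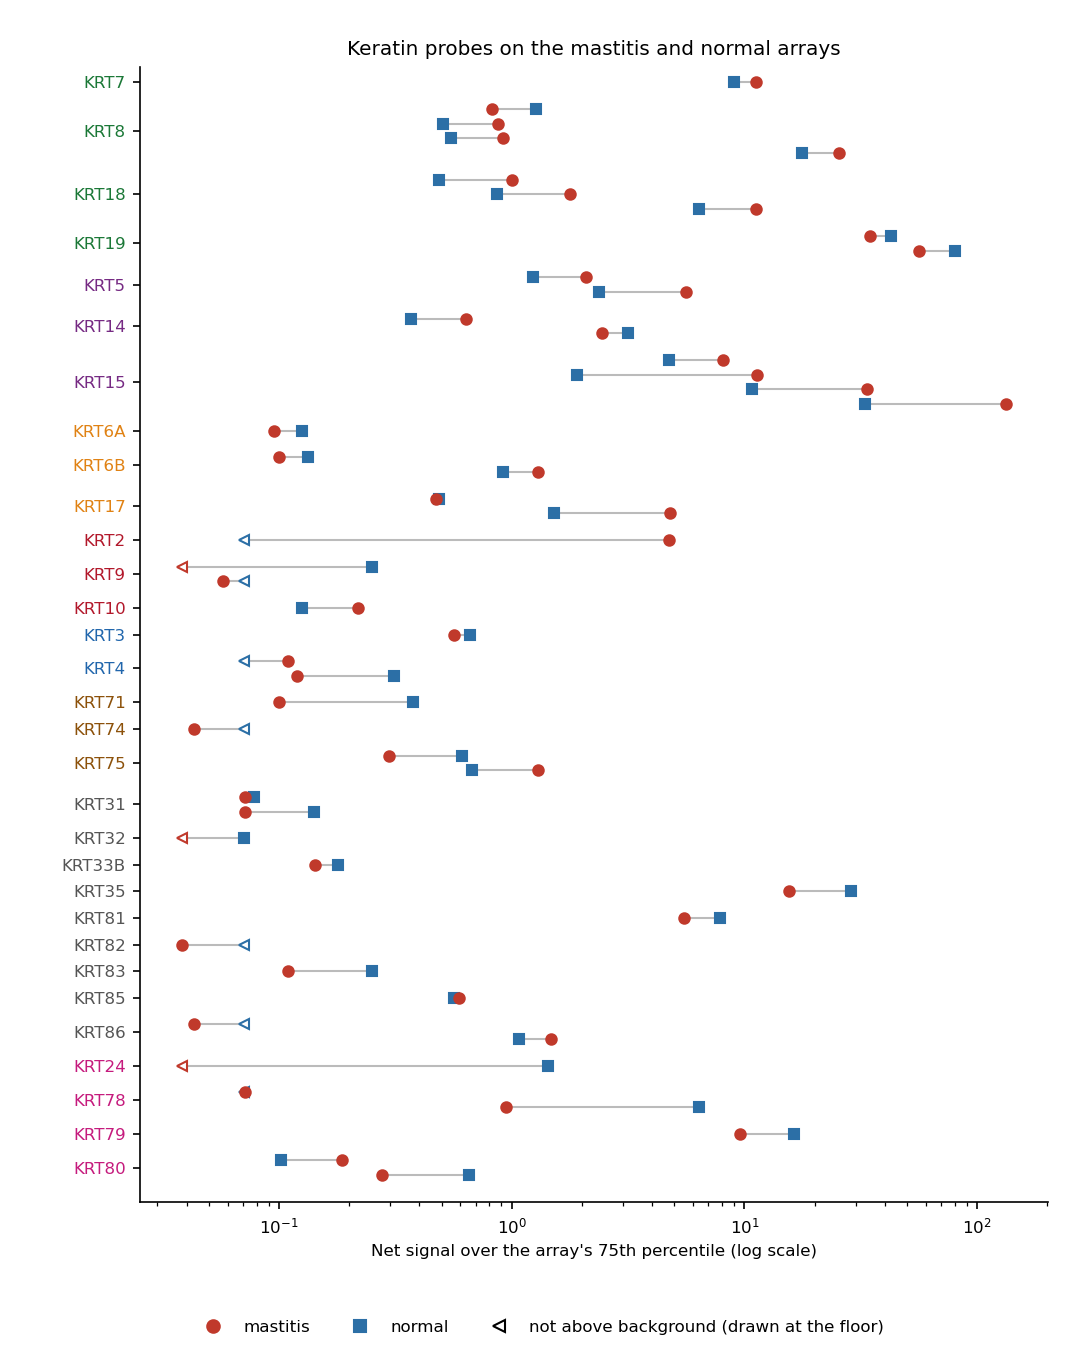
Net signal of each keratin probe over its array's 75th percentile (log axis), 1 row per probe that was above background on at least 1 array, with the mastitis array as red circles and the normal array as blue squares. Open triangles are signals that were not above background, drawn at the lowest signal above background on that array, and gene names are coloured by the classes used in the text. All 4 probes of KRT15 lie to the right on the mastitis array, and KRT2 and KRT24 show a signal on 1 array alone.

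The basal keratins had the highest median ratio of the 7 keratin classes with more than 1 measured gene. KRT5 (type II) and its type I partners KRT14 and KRT15 make up the filaments of basal cells, and KRT15 is also known from stem cells of the hair follicle. All 3 were above 0, with a median log2 ratio of 0.99, and 1 of 3 was past 2-fold. Every other division by a constant that was tried raised all ratios, so none of these could have turned the 3 below 0. Under quantile normalization they were at 1.99 (KRT15), 1.03 (KRT5) and 0.26 (KRT14). KRT14 was at -0.38 by its brightest probe or over probes with net signals of 50 or more.

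KRT15 was carried by 4 probes with net signals of 28036, 7049, 2370 and 1698 on the mastitis array, and 4222, 1384, 244 and 608 on the normal one in the same order. Every probe was above 0 (log2 ratios of 2.02, 1.63, 2.57 and 0.77). The mean was 1.75 ± 0.76 (SD, n = 4 probes), or 3.35-fold. No other keratin was past 2-fold upward, although KRT5 came close.

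KRT5 had net signals of 436 and 1174 on the mastitis array against 158 and 303 on the normal array. Both probes were higher on the mastitis array, at 0.99 ± 0.35 (SD, n = 2 probes), or 1.99-fold. The normal spot of the brighter probe was uneven, with a coefficient of variation of 69% over its pixels, and the other probe alone gave 0.75.

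KRT14 had net signals of 512 and 133 on the mastitis array against 405 and 47 on the normal array. Its probes disagreed, at -0.38 and 0.79, and the mean of 0.21 ± 0.82 (SD, n = 2 probes) lay within their spread. The brighter of these probes put KRT14 below 0.

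The simple epithelial keratins, which build the filaments of luminal and other single-layered epithelium, lay within 2-fold. Of the 4 measured, 3 were above 0 (KRT18, KRT8 and KRT7) and KRT19 was below, with a median of 0.34. KRT20 was not above background on either array.

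KRT18 had net signals of 2342, 375 and 211 on the mastitis array against 812, 111 and 62 on the normal array. Its 3 probes agreed closely, at 0.97 ± 0.13 (SD, n = 3 probes), or 1.96-fold, and it passed 2-fold when the arrays were scaled by the median, by quantiles or by spike-in probes. Its type II partner KRT8 was measured by 4 probes, with net signals of 5328, 192, 184 and 173 on the mastitis array, and 2252, 70, 65 and 163 on the normal one. The probes of KRT8 with a normal signal of 2252, 70 and 65 gave log2 ratios of 0.53, 0.74 and 0.79, and the probe at 163 gave -0.63, for a mean of 0.36 ± 0.67 (SD, n = 4 probes).

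KRT19, a type I keratin that lacks most of the tail domain, had net signals of 11851 and 7304 on the mastitis array against 10260 and 5457 on the normal array. Both probes were below 0 after scaling, at -0.40 ± 0.15 (SD, n = 2 probes), and above 0 under quantile normalization (0.08) or with no scaling (0.31). KRT7, a type II keratin of glandular ducts, had a net signal of 2364 against 1156 in 1 probe and a log2 ratio of 0.32. KRT18 and KRT19, both type I keratins of the luminal layer, thus lay on opposite sides of 0 under the scaling used.

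**Figure D2:**
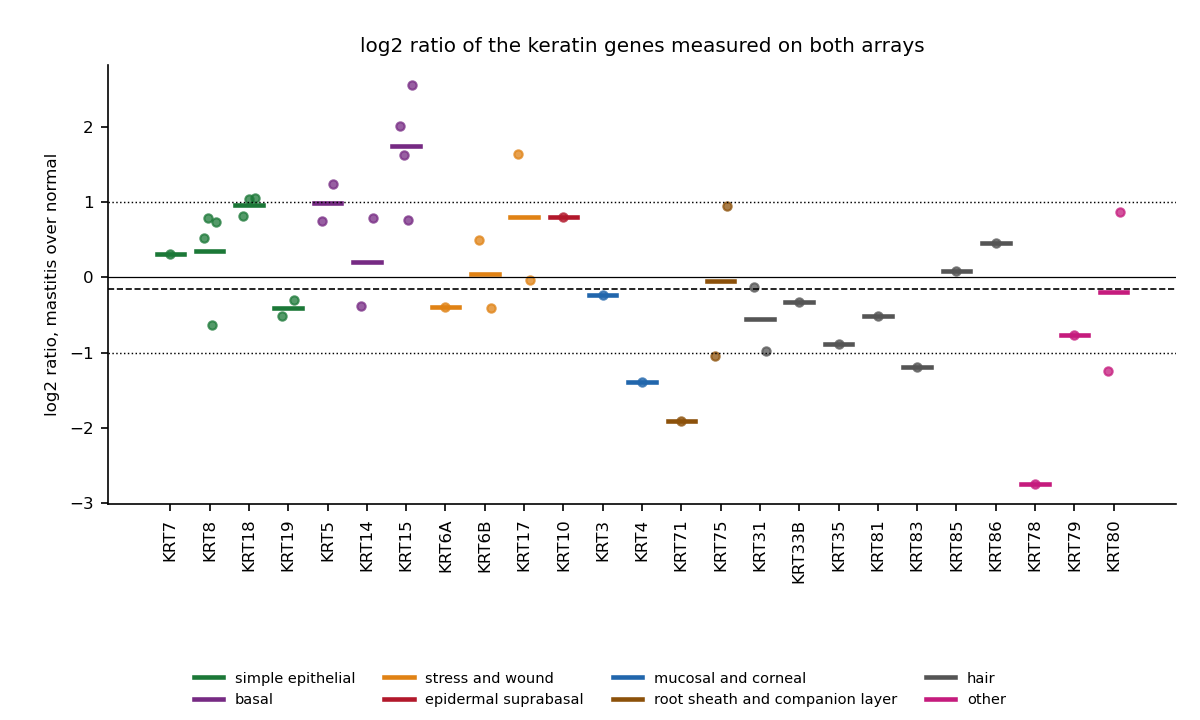
log2 ratio (mastitis over normal) of the 25 keratin genes measured on both arrays, ordered and coloured by class. Points are probes and horizontal bars their mean, dotted lines mark 2-fold, and a dashed line marks the all-gene median (-0.15). KRT15 lies above 2-fold at 1.75, and KRT83, KRT4, KRT71 and KRT78 lie below it, down to -2.75.

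The stress and wound keratins, which stratified epithelium is known to switch on after injury, had no gene mean past 2-fold under the scaling used. KRT17 had net signals of 1002 and 99 on the mastitis array against 195 and 62 on the normal array. The brighter of these probes gave 1.65 and the other -0.04, so that the mean of 0.80 ± 1.19 (SD, n = 2 probes) lay within the spread of its probes. KRT17 passed 2-fold with spike-in scaling (1.04), without scaling (1.52) or by its brightest probe. KRT6A had a net signal of 20 against 16 (log2 ratio -0.39), close to background on both arrays.

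KRT6B had net signals of 271 and 21 on the mastitis array against 117 and 17 on the normal array, and its other 2 probes were not above background. These gave 0.04 ± 0.64 (SD, n = 2 probes), with probes on opposite sides of 0. KRT6C was not above background on either array, and KRT16 had no probe. KRT6A, KRT6B and KRT6C are near-identical genes, and cross-hybridization between their probes was not tested.

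Of the suprabasal keratins of epidermis, KRT10, the type I keratin of differentiating epidermal cells, was measured in 1 probe at a net signal of 46 against 16. Its log2 ratio of 0.81 fell to 0.01 under the normexp background correction. KRT9, known from the skin of palms and soles, was above background on the mastitis array in a probe at 12 (against 5) and on the normal array in another at 32 (-1 in mastitis), and has no ratio.

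KRT2, another suprabasal epidermal keratin, had a net signal of 992 against -1 in 1 probe. Its other probe was at background on both arrays (1 and 4). Taken as a bound, the bright probe gives at least 67.2-fold higher in mastitis, the signal on the dim side being set to the lowest one above background there.

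The KRT2 spot behind this bound was small and uneven. It had a diameter of 25 µm and 12 pixels, with a coefficient of variation of 114% over them, and its mean net signal was 1905 against the median of 992. Of 4578 spots on the mastitis array with a net signal of 500 to 2000, 4574 had a diameter of 50 to 60 µm and 3 had one of 25 µm or less, and 11 had a coefficient of variation over 100%. The median spot of that range had 80 pixels and a coefficient of variation of 18% (quartiles 15 and 22). Like KRT24, KRT2 was above background on 1 array alone, and for that reason it was not among the keratins counted as past 2-fold. Of the keratin spots above background (48 for mastitis and 44 for normal), 1 on each array had a coefficient of variation over 50%, those of KRT2 and KRT5. The part of spot shape in the KRT2 signal was not tested.

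The keratins of mucosa and cornea were below 0. KRT4, the type II keratin of non-keratinized stratified epithelium, had a net signal of 25 against 40 in the 1 probe measured on both arrays, a log2 ratio of -1.39 (2.63-fold lower). A second probe at 23 against 15 was not found as a spot on the normal array, and its last was at 3 on both. KRT4 was not past 2-fold with normexp (-0.73), without scaling (-0.68), without a filter on dim probes (-0.73) or when unfound spots were kept. KRT3, the type II corneal keratin, had a net signal of 119 against 85 (log2 ratio -0.23, and 0.01 with spike-in scaling). KRT12 and KRT76 were not above background on either array.

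KRT78, KRT79 and KRT80 are type II keratins described in stratified epithelium and, for KRT79, in the hair canal and sebaceous duct. KRT78 had the lowest ratio of all measured keratins. Its 1 measured probe had a net signal of 199 against 816, a log2 ratio of -2.75 (6.73-fold lower). Both spots were even, with coefficients of variation of 18% and 10%. Of its other 4 probes, 3 were not above background on either array. The last was so on the mastitis array alone, at 15 against 9 with no spot found on the normal array, and did not run the same way. The ratio was -1.11 when they were averaged in without a filter. KRT78 stayed at least 2-fold lower under every alternative tried.

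KRT79 had a net signal of 2003 against 2083 (log2 ratio -0.77). KRT80 had net signals of 58 and 39 against 84 and 13, and its probes disagreed with each other at -0.19 ± 1.5 (SD, n = 2 probes). KRT24, a type I keratin, had a net signal of 2 against 183 in its only probe, a bound of at least 37.5-fold lower in mastitis. The low values of KRT78 and KRT24 thus rest on 1 probe each.

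Of the 9 keratins of the inner root sheath and companion layer of the hair follicle, 2 were measured on both arrays. KRT71, a type II keratin of the inner root sheath, had a net signal of 21 against 48, a log2 ratio of -1.91 (3.75-fold lower, and 1.93-fold lower with normexp). Both signals were low but above background. KRT75, the type II keratin of the companion layer, had net signals of 272 and 62 against 86 and 78, and its probes lay on opposite sides of 0 (-0.05 ± 1.41, SD, n = 2 probes). KRT74 was above background on the mastitis array alone, at 9 against 9, where the thresholds of both arrays lie, and has no fold.

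The hair keratins form the shaft of the hair, and 7 of 15 with a probe were measured on both arrays. Their median was -0.51, with 5 below 0 and KRT86 and KRT85 above, and 1 of 7 (KRT83) was at least 2-fold lower. The median was 0.36 below that of all genes (-0.36 on the log2 scale) under the scaling used and 0.19 below (-0.19) under quantile normalization, and above 0 only without scaling (0.20) or in the deposited table as given (0.13).

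KRT35, a type I hair keratin, had a net signal of 3247 against 3659, a log2 ratio of -0.89. KRT81, a type II hair keratin, had 1152 against 1002 (-0.51). Both were far above background on both arrays, while most hair keratins were dim or not measured.

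KRT86 had a net signal of 309 against 137 (log2 ratio 0.46) and KRT85 one of 125 against 72 (0.08). KRT33B had 30 against 23 (-0.33), and the 2 probes of KRT31 had 15 against 10 and 15 against 18 (-0.55 ± 0.60, SD, n = 2 probes). KRT83 had 23 against 32, a log2 ratio of -1.19 (2.28-fold lower, and 1.54-fold lower with normexp). KRT83 was also within 2-fold with quantile normalization (-0.98), spike-in scaling (-0.95), the deposited table moved by 1 probe (-0.92) or no scaling (-0.48). Its normal spot had a diameter of 75 µm and 156 pixels, with a coefficient of variation of 41%. On the mastitis array these were 50 µm, 80 pixels and 23%. Only the signals of KRT86 and KRT85 were above 50 among these genes. KRT32 was above background on the normal array alone, at 9 against 2, a bound of at least 1.85-fold lower. KRT82 was so on the mastitis array alone, at 8 against 9, and has no fold.

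The 4 keratins at least 2-fold lower were all of type II, of which 16 were measured, with a median of -0.21. The 1 keratin at least 2-fold higher was of type I, of which 9 were measured, with a median of 0.21. The order of these medians cannot change when an array is divided by a constant. The median of type I was below that of type II with the brightest probe of each gene (-0.33 against -0.31) and without a filter on dim probes (-0.71 against -0.62).

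Known partners of a filament had unlike ratios, and probes of 1 keratin gene also differed among themselves. The difference within a pair, type I minus type II, does not change when an array is divided by a constant. KRT18 exceeded KRT8 by 0.61 and KRT15 exceeded KRT5 by 0.75 on the log2 scale. KRT14 was below KRT5 (-0.79) and KRT19 below KRT7 (-0.72). KRT17 exceeded KRT6A by 1.20, with the KRT17 probes disagreeing and KRT6A near background. In hair, KRT35 lay below KRT81 (-0.37) and below KRT85 (-0.97). The pooled SD over probes of 1 keratin gene was 0.80. It describes single probes and not a difference between gene means, which rest on unlike numbers of probes. The 7 pairs were therefore not ranked by it.

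Probes of the same keratin gene often disagreed in direction. Of 11 keratin genes with more than 1 measured probe, 6 (54.5%) had probes on opposite sides of 0 (KRT14, KRT17, KRT6B, KRT75, KRT8 and KRT80), beside 36.3% of 6420 genes. The pooled SD over probes was 0.80 for keratins and 0.45 for all genes. Replicate spots of the same probe varied less, with a pooled SD of 0.16 over 41 probes printed more than once. KRT15, KRT18, KRT5, KRT19 and KRT31 were the keratins with several measured probes on the same side.

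Apart from KRT18, type I and type II keratin genes lie in a cluster each, and neighbours did not share a direction throughout. By the order of genes in the RefSeq annotation, used for neighbours only, the type I cluster holds 29 keratin genes, of which 24 are on the array and 8 were measured, and the type II cluster with KRT18 at its edge holds 28, of which 26 are on the array and 17 were measured. KRT15 (1.75) and KRT19 (-0.40) are next to each other. KRT71 (-1.91) and KRT5 (0.99) are also neighbours.

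One stretch of the type II cluster, picked after the values were seen, had a run below 0, where most genes lay (38.6% of all genes were above 0). KRT78, KRT79, KRT4 and KRT3 follow each other, at -2.75, -0.77, -1.39 and -0.23. On the side of KRT78, the run is followed by KRT8 (0.36) and KRT18 (0.97). Of the 4 genes, 3 stayed below 0 with no scaling (KRT78 at -2.04, KRT4 at -0.68 and KRT79 at -0.06), and KRT3 was then at 0.49 (0.01 with spike-in scaling).

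**Figure D3:**
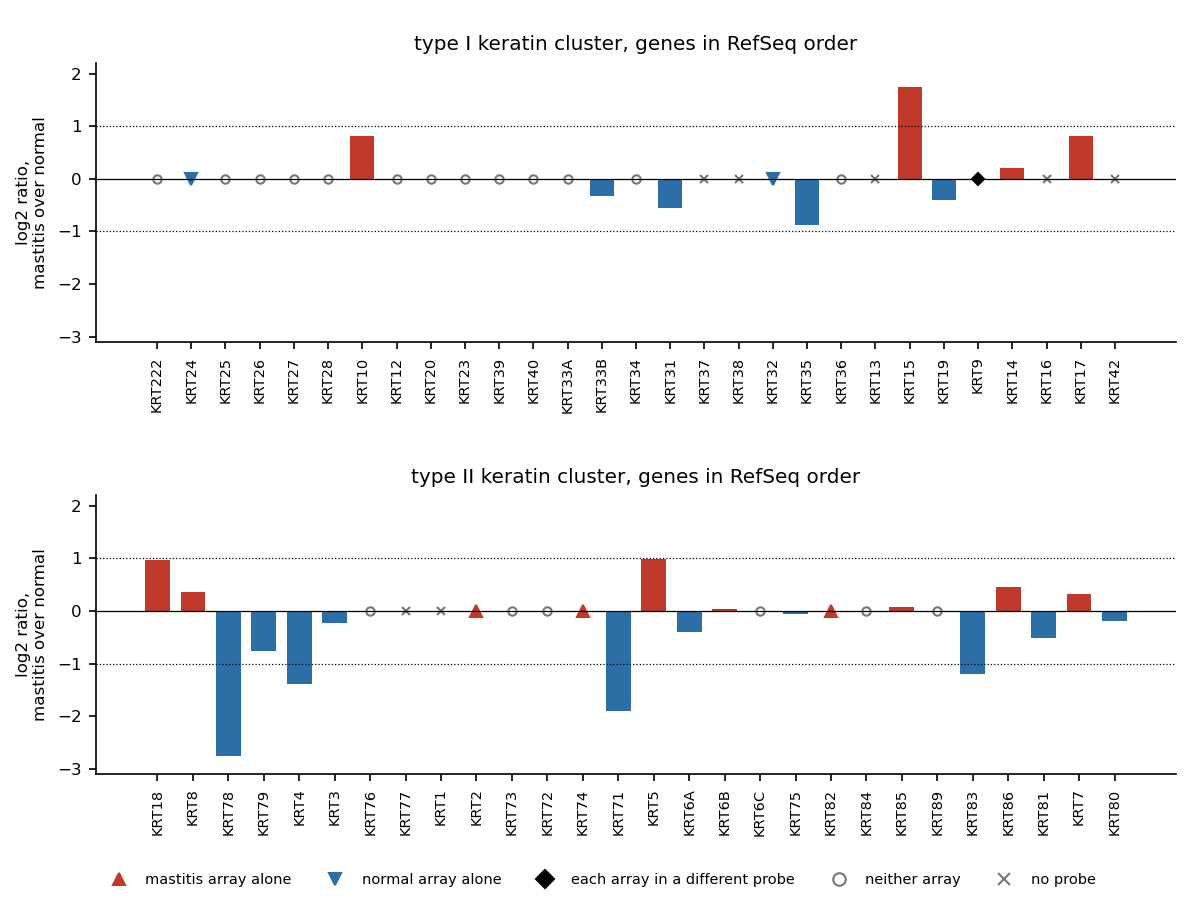
log2 ratio (mastitis over normal) of keratin genes in RefSeq order along the type I and type II clusters, with equal spacing and without distances. Bars are genes measured on both arrays, dotted lines mark 2-fold, triangles are genes above background on 1 array alone, and circles and crosses are genes measured on neither array or without a probe. KRT15 stands at 1.75 beside KRT19 at -0.40, and KRT78, KRT79, KRT4 and KRT3 form a run below 0.

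Keratin filaments end at desmosomes, which join neighbouring cells, and at hemidesmosomes, which hold basal cells to the basement membrane. Of 12 measured desmosome genes, none was at least 2-fold higher and 1 (8.33%) was lower, close to the 9.14% of all genes, with a median of -0.33. The lowest were CDSN, a protein of the desmosomes of the outer skin layers, at -1.11 (net signal 19 against 25, and within 2-fold with normexp, quantile, median or spike-in scaling) and DSC3, a desmosomal cadherin, at -0.92 (13 against 15). The highest were the plakophilins PKP4 at 0.46 and PKP1 at 0.42. The skin desmosome genes DSG1, DSG4 and DSC1 were not above background on either array.

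None of the 8 measured hemidesmosome and anchor genes was past 2-fold, and their median was 0.37. DST, the plakin that ties KRT5 and KRT14 filaments to the hemidesmosome, was at 0.87 and LAMA3, a chain of the laminin below it, at 0.79. CD151, a tetraspanin, was at -0.35 and the integrin ITGA6 at -0.15. Of the other plakins and cross-linkers 3 were measured, PPL at 0.35, TCHP at 0.05 and TRIM29 at -0.30, and none was past 2-fold.

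The cornified envelope is the protein shell that keratinized cells of skin form around their keratin. Of 10 measured genes, 6 were at least 2-fold lower and 1 was higher, with a median of -1.13 (9.14% of all genes were lower and 2.26% higher). This list, like the other network lists, was written with earlier results of these data known. Its share is therefore a description and not independent of the values. With normexp 3 were lower and none higher, and the median was -0.73 (3.25% and 0.776% of all genes). The lowest was KLK5, a protease of the outer skin layers, with a net signal of 42 against 4952 and a log2 ratio of -7.60. The transglutaminase TGM3 had 43 against 739 (-4.82), and PSORS1C2 was above background on the normal array alone, at 127 against 7, a bound of at least 26.0-fold lower.

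CNFN, an envelope protein, was lower as well (127 against 777, log2 ratio -3.33). DMKN, which is secreted by skin cells, was the 1 envelope gene past 2-fold upward, at 1.63 with net signals of 109 and 22 (medians over its probes), and was 1.56-fold higher with normexp. CALML5, a calcium-binding protein of skin, was the second highest, at -0.05. Loricrin (LORICRIN), a main component of the envelope, was not above background on either array. Of the 35 envelope genes listed, 21 had a probe under the naming used here.

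Of 16 measured regulators of epidermal differentiation, 2 were at least 2-fold higher (2.26% of all genes) and none lower, with a median of -0.10. These were KLF4 (1.06) and the Notch target HES1 (1.04), both transcription factors. With normexp neither passed 2-fold (1.42-fold for KLF4 and 1.85-fold for HES1). EHF, an epithelial ETS factor, was at -0.80 and NOTCH1 at -0.71, at the threshold of background with 9 on both arrays. TP63, the factor that drives KRT5 and KRT14 in basal cells, was not above background on either array.

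Among the 11 other measured intermediate filament genes 1 was at least 2-fold higher and 1 lower (2.26% and 9.14% of all genes), and neither with normexp, and the median was -0.20. NEFM, a neurofilament chain, was at 2.63 (net signal 112 against 11, and 1.86-fold with normexp) and vimentin (VIM), the filament of mesenchymal cells, at 0.57 (medians of 5191 against 2064 over its probes). INA, another neuronal filament, was at -1.25 (11 against 16) and SYNC at -0.80.

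**Figure D4:**
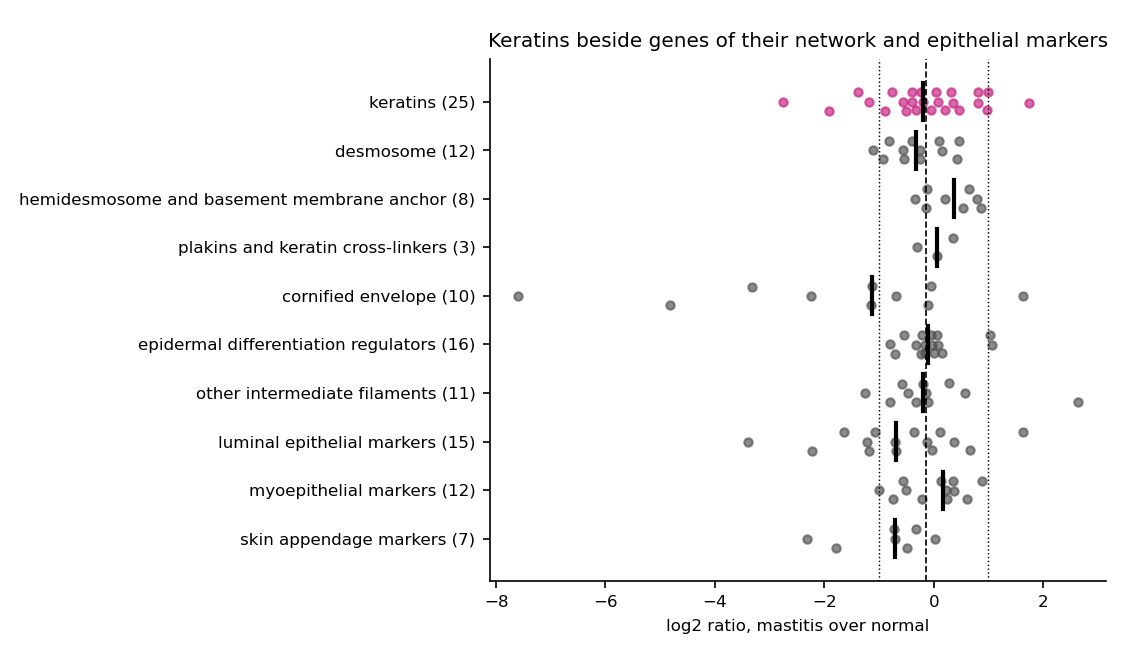
log2 ratio (mastitis over normal) of measured genes in each list, with the number of genes in parentheses. Points are genes, thick bars are medians, dotted lines mark 2-fold, and a dashed line marks the all-gene median. The cornified envelope genes reach -7.60 with a median of -1.13, while the keratins (25 genes) have a median of -0.19.

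Markers of the cells that hold keratins were set beside them, and their part in the keratin ratios was not tested. All marker lists were written with earlier results of these data known, so their counts and shares are description only. Of 15 measured luminal markers, 6 were at least 2-fold lower and 1 higher (9.14% and 2.26% of all genes), with a median of -0.70. Their summed net signal was 15133 against 24495, a log2 ratio of -1.41 after scaling. With normexp or without scaling 2 were lower, and with spike-in scaling 3. MUC1, the apical mucin, was at -3.40 and ELF5, a factor of the secretory lineage, at -2.22. KIT, a receptor of luminal progenitors, was at 1.64, and CLDN4 at 0.67. Of the keratins of luminal cells, KRT8, KRT18 and KRT7 were above 0 and KRT19 (-0.40) was below, as was the median of these markers. The common epithelial genes EPCAM (0.12) and CDH1 (0.38) lay within 2-fold.

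Of 12 measured myoepithelial markers 1 was at least 2-fold lower (9.14% of all genes), with a median of 0.17. Their summed net signal was 45920 against 25650, a log2 ratio of 0.13 after scaling. SNAI2, a transcription factor of basal cells, was at 0.88 and CALD1 at 0.62, while CNN1, a contractile protein, was at -1.01 and the cadherin CDH3 at -0.74. The highest of the 12 was SNAI2, below the basal keratins KRT15 (1.75) and, in the mean of its probes, KRT5 (0.99), while KRT14 (0.21) lay among them. The call of CNN1 ended with normexp (-0.50), and with quantile, median or spike-in scaling.

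Of 7 measured markers of skin appendages 2 were at least 2-fold lower and none higher (9.14% and 2.26% of all genes), with a median of -0.71. Their summed net signal was 8185 against 12804, a log2 ratio of -1.36 after scaling. The stem cell receptor LGR6 was at -2.32 (2212 against 6738) and AQP5, a water channel of sweat and other glands, at -1.79. S100A3, a protein of hair cuticle, was at 0.02 and HOXC13, a regulator of hair keratins, at -0.32, and the hair keratin-associated proteins KRTAP3-1 and KRTAP11-1 were not above background on either array.

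Marker lists of other cell types ran in both directions. Of the measured markers, 8 of 10 for neutrophils were at least 2-fold lower (median -1.62) and 4 of 10 for macrophages were higher (median 0.89). For adipocytes 4 of 7 were lower (median -1.61), beside 9.14% of all genes lower and 2.26% higher. With normexp CIDEA (-2.67) and LPL (-1.50) stayed past 2-fold, and CIDEC (-0.86) and LEP (-0.61) did not. The other 3 adipocyte markers were above 0. The summed net signal of the adipocyte markers was 15011 against 11035, a log2 ratio of -0.27 after scaling. The summed net signal of the macrophage markers was 44212 against 15134, a log2 ratio of 0.83 after scaling. The summed net signal of the neutrophil markers (137278 against 188439, a log2 ratio of -1.17 after scaling) was carried by lactoferrin (LTF), which mammary epithelium also makes. LTF had a median of 23762 against 41061 over its 5 probes. The medians were 0.40 for 12 fibroblast, 0.23 for 10 endothelial, 0.03 for 14 T and NK cell, -0.41 for 9 B and plasma cell and 0.19 for 6 erythroid markers. No endothelial or T and NK cell marker was past 2-fold. At least 2-fold higher were 1 fibroblast, 1 B and plasma cell and 2 erythroid markers (2.26% of all genes). At least 2-fold lower were 1 fibroblast, 2 B and plasma cell and no erythroid markers (9.14% of all genes). Under the scaling used, 9 of the 10 measured neutrophil markers were thus below 0, and FCGR3A was at 0.46. With normexp S100A9 (-0.93) and MMP9 (-0.73) were within 2-fold. Without scaling only CXCR1, CSF3R and ELANE were at least 2-fold lower. CXCR1 had a net signal of 8 against 83, with 8 the smallest signal above background on the mastitis array. The part of cell composition in the keratin ratios was not tested.

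**Figure D5:**
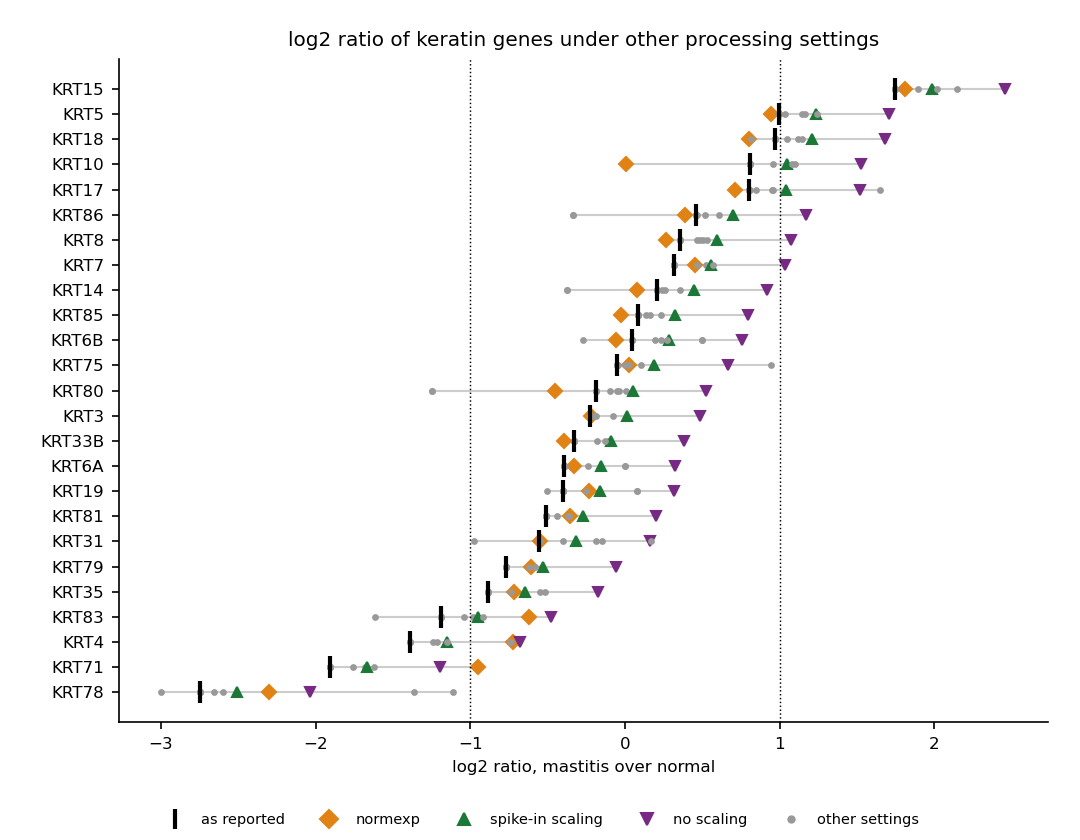
log2 ratio (mastitis over normal) of each measured keratin gene as reported (black tick) and under other processing settings (coloured and grey points, with a grey line from the lowest to the highest). Dotted lines mark 2-fold, and the settings exclude the deposited table as given. KRT15 runs from 1.75 to 2.46, KRT78 reaches up to -1.11 only, and KRT10 runs from 0.01 to 1.52.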

How the data were processed

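Total RNA from mammary tissue was hybridized to an Agilent bovine array (design 023647 per the file headers) and read with GenePix Pro 6.1, while Agilent Feature Extraction stands in the submitters' processing notes and an Affymetrix chip in the study's methods. The labels name a miRNeasy kit and the methods Trizol. The authors deposited for each spot an intensity from which the negative control mean had been taken off (26 for mastitis, 24 for normal) and no scaling, the percent of saturated pixels, a pixel coefficient of variation in percent and a signal-to-noise score. How the deposited log2 table was made is not given in the sources used here. Its column medians are 4.34 and 4.29, its scale and direction were settled against the scanner signals, and its values followed the next probe in sorted order (Spearman 1.00, against 0.10 in the same row), so it served as an alternative only.

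Spots of a probe were averaged, control spots were left out, and no keratin probe was saturated. Log2 ratios were averaged over the probes of a gene that were above background on both arrays. For a gene above background on 1 array alone, a bound was taken from its brightest probe, with the dim side at its own signal or at the smallest signal above background there (8 for mastitis, 9 for normal), whichever was larger. Probes were named through a RefSeq table of ARS-UCD2.0, by accession (26743 probes), symbol (5971) or synonym (141), while 1662 were left with their original name and 9136 unnamed. Of the keratin probes, 81 were named by accession and 4 carry a newer symbol than in the files. The build behind the array is not given in the sources used here, so no coordinates are printed, and no sequences were used.

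No test was possible with 1 array per group, whose number limits the precision. Counts use a 2-fold threshold beside the share of all genes. Every keratin gene above background on an array is named, and of each network list and of the luminal, myoepithelial and skin appendage lists the 2 lowest and 2 highest genes and any bound above 4-fold. Other genes are named for what they are known for and were chosen after their values were seen. Lists of other cell types are given as counts, and the members named there were chosen after their values were seen. The keratin genes and all lists were chosen with earlier results of these data known. The procedure was tested on simulated data, with noise as between replicate spots (SD 0.16) and the above-background calls of the real arrays. That test could not show errors from disagreeing probes or from these calls. Alternatives were normexp (offset 50), other scalings, the deposited table, other filters and thresholds. Those added after seeing the data were genes whose probes share a sign, counted bounds, and spots with a pixel coefficient of variation over 50% left out. Tools were limma 3.58.1 (R 4.3.3), matplotlib 3.10.9, scipy 1.17.1, pandas 2.3.3 and numpy 2.4.6 (Python 3.11.15).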

Additional observations from a re-analysis of the deposited data

How the results depend on the processing

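With each group on 1 array, no array could be left out. No paired analysis was possible because each group has 1 array. The number of keratins at least 2-fold lower (4) became 1 with normexp (KRT78), 2 without scaling (KRT71 and KRT78) and 2 at 3-fold. It was 3 with quantile normalization, spike-in probes or the deposited table moved by 1 probe (KRT4, KRT71 and KRT78). With unfound spots kept it was 3 (KRT71, KRT78 and KRT83). In the deposited table as given it was also 3, with other members (KRT6B, KRT78 and KRT83). Among 18 keratins with a net signal of at least 50 it was 2 (KRT78 and KRT80). It was 5 with the brightest probe (KRT80 added), 6 at 1.5-fold and 1 at 4-fold. Counting bounds added KRT24. With no filter on dim probes it was 20 of 50 (23.8% of all genes were then lower, with a median of -0.36). The number at least 2-fold higher (1) became 4 with quantile normalization or with the deposited table moved by 1 probe (KRT10, KRT15, KRT18 and KRT5), 3 by the median (KRT15, KRT18 and KRT5), 5 with spike-in probes (7 probes), 8 without scaling, 3 with the brightest probe (KRT15, KRT17 and KRT5), 2 without a filter, 2 with the deposited table as given, 5 at 1.5-fold, 0 at 4-fold and 2 with bounds counted. The shares of all genes moved too. They were 3.25% lower and 0.776% higher with normexp, 6.14% and 3.56% with quantile normalization, and 2.64% and 20% without scaling. The keratin median was 0.53 without scaling and -0.72 without a filter.

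KRT15 stayed at least 2-fold higher except at the 4-fold threshold and in the deposited table as given. KRT4 reversed to 7.04 in that table, whose rows follow another probe. Of the single keratin values under the alternatives, 304 moved by less than the SD over probes of all genes (0.45) and 62 by more. Settings that divide an array by a constant move every gene alike, by 0.24 with spike-in probes and 0.71 without scaling. These counts therefore do not measure how stable single keratins are. KRT4, KRT71 and KRT83 are dim, and their calls rest on signals of 21 to 48. The cause of the other changes was not tested.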

Other observations

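Some probes are described as keratins in the files but carry no KRT symbol. A cluster sequence described as part of bovine keratin 7 had a net signal of 2343 on the mastitis array against 1015 on the normal array, a log2 ratio of 0.49, beside 0.32 for the KRT7 probe. A probe described by its likeness to mouse keratin 1 had 443 against 203 (0.41). It is the 1 probe with that description, and KRT1 itself had no probe under its own name. A probe described as keratin 81-like had 10 against 14 (-1.20), close to background.

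LOC615589, a keratin-like gene that RefSeq places in the type II cluster between KRT75 and KRT82, had 5 probes measured on both arrays. Its log2 ratios ran from -0.75 to -0.50 with a median of -0.63. All 5 lay below 0 under the scaling used, while the net signals before scaling ran from 175 against 160 to 343 against 324, with 4 of 5 higher on the mastitis array.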
